A study of Bos taurus with 86 samples.

Results

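The genes described here encode subunits of the mitochondrial respiratory chain that the cell nucleus carries. They were taken from the array by symbol: rows whose only gene symbol in the platform annotation began with NDUF, UQCR, ATP5, any of SDHA to SDHD or any of COX4 to COX8, or was CYC1 or CYCS. This rule used no measured value, though the members were chosen with earlier results of these data known. It matched 52 genes on 114 of 16416 rows, out of 4452 genes with a single symbol. CYC1 and CYCS had no row under a single symbol and are not analysed here. Of the 52 genes, 45 had a row that was measured in at least 7 embryos of every group. These 45 were tested among 6278 features (3433 named genes and 2845 rows without a single symbol). By complex, the 45 comprise 18 genes of complex I, 2 of complex II, 5 of complex III, 5 of complex IV, 10 of complex V and 5 associated proteins that share the symbols.

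The respiratory chain passes electrons from NADH (complex I) and succinate (complex II) through ubiquinone, complex III and cytochrome c to oxygen at complex IV, and pumps protons across the inner mitochondrial membrane on the way. ATP synthase, or complex V, uses the proton gradient to make ATP. Most subunits are encoded in the nucleus, a small set in mitochondrial DNA, and embryos before implantation draw much of their ATP from this chain.

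Single bovine embryos were hybridised to 2-colour cDNA arrays against a common reference RNA. The 43 embryos fall into 14 labelled AI, 14 labelled IVD and 15 labelled IVF. AI was taken to mean artificial insemination and IVF fertilization in vitro, while IVD is not spelled out and serves only as a name; the title of the series asks about maturation, fertilization and culture in vitro. The sources used here do not give breed, dam, embryo age, culture medium or the make-up of the reference RNA. RNA was amplified linearly in 3 rounds for every embryo and in 2 for the reference. Each embryo has 2 arrays with the dyes exchanged, and their mean is 1 replicate. The numbers of IVD embryos 12_1 to 12_4 begin alike, and the labels do not say whether they are related.

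Values are log2 ratios of embryo over reference after each array was centred on its median, so a level tells how a gene stands against the reference and cannot be set against that of another gene. That the ratio runs embryo over reference is likely rather than stated: 15 of 18 trophectoderm markers lay above 0 (median 1.80) and 0 of 3 blood and immune markers did (median -1.05). With the other direction every sign below would turn. Whole embryos were measured, so fewer cells of a type and less RNA per cell cannot be told apart. The groups also differed in array measures: rows without a value, as a mean over an embryo's arrays, numbered 3613 to 5713 for AI, 1001.5 to 1871.5 for IVD and 3076.5 to 5099.5 for IVF. Across rows, the paired arrays of an embryo correlated at -0.912 to -0.816 for AI, -0.767 to -0.589 for IVD and -0.911 to -0.717 for IVF. The part of these measures in the results was not tested, as the clusters of dye bias described below rest on another measure. Differences below are between group means, with standard errors (SE), and a gene is said to have fallen or risen where limma's adjusted p, over all 6278 features, was under 0.05.

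By the median of each complex, respiratory chain transcripts were lower in IVF and in IVD than in AI embryos in all 5 complexes. Against AI, 36 of the 45 genes fell in IVF and 1 rose, where 17.7% of all features fell and 19.9% rose. In IVD, 25 of 45 fell and 1 rose, where 21% of all features fell and 25.5% rose. The median difference over the 45 genes was -0.53 in IVF and -0.36 in IVD, against 0.04 and 0.06 over all features. The IVD count rests on the centring of the arrays: with the values as given, 12 fell and 2 rose, where 6.59% and 38.3% of all features did, at a median of -0.11. Both comparisons use the same AI embryos and are therefore not independent of each other.

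The fall was spread over embryos. As the median over the 40 genes of complexes I to V, each gene taken relative to its AI mean, AI embryos lay between -0.21 and 0.16. All 15 IVF embryos (-0.79 to -0.28) and 13 of 14 IVD embryos (-0.75 to -0.14) lay below the lowest AI embryo. IVF 7 was the lowest IVF embryo and IVF 12 the highest, while IVD 8 was the lowest and IVD 6 the highest of the IVD embryos. By complex, every IVF embryo lay below every AI embryo for complex I (15 of 15) and complex V (15 of 15), and every IVD embryo did for complex III (14 of 14). For complex II, 13 of 14 IVD but 9 of 15 IVF embryos were under the lowest AI value. Counted by embryo, the genes that lay more than 1 below their AI mean numbered 0 to 1 for AI, 3 to 12 for IVD and 2 to 17 for IVF. At the top were IVF 7 (17 genes), IVF 18 (15 genes) and IVF 11 (14 genes). The AI embryos make up the mean that they are set against, which holds their own counts down. No like count was made over all features, so these counts are not read as particular to these genes.

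**Figure D1:**
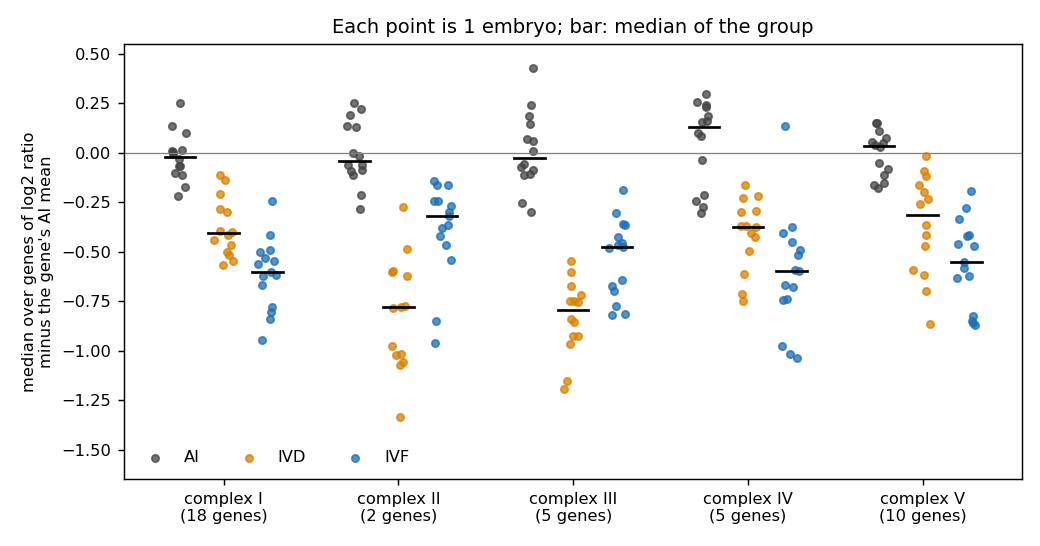
Median over the genes of each complex of the log2 ratio minus the gene's AI mean (y axis), for every embryo (points) in AI, IVD and IVF, with the group median as a bar. IVD embryos are lowest for complexes II and III (group medians -0.78 and -0.80), IVF embryos for complexes I, IV and V (-0.60, -0.60 and -0.55).

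Dye bias, the part of the signal that does not turn sign between an embryo's paired arrays, grouped the embryos in part by label. One way of clustering placed 5 AI, 14 IVD and 2 IVF embryos together, 9 AI and 12 IVF in a second cluster, and IVF 7 alone. Within the second cluster 25 of 45 genes fell in IVF and 0 rose, where 10.7% and 9.8% of all features did, with a median of -0.51. Within the cluster of 5 AI and 14 IVD embryos 25 fell in IVD and 2 rose, where 17.7% and 23.5% of all features did, with a median of -0.45. Clustering by correlation placed 13 AI, 14 IVD and 2 IVF embryos together, 1 AI with 11 IVF, and 2 IVF apart. With these clusters as a block 11 genes fell in IVF, where 4.81% of all features did, at a median of -0.55. The number of rows without a value and the dye-swap correlation, given above, did not overlap between IVD and AI, so these measures and the IVD group cannot be told apart.

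In complex I, the NADH dehydrogenase, 15 of 18 genes fell in IVF and 1 rose (median -0.64), and 9 fell in IVD and 0 rose (median -0.32). Most of these were accessory subunits: all 9 of the membrane arm fell (-1.10 to -0.34), as did all 5 of the NADH-oxidising module (-1.04 to -0.40). In IVD, 3 of the 9 and 3 of the 5 fell. Among all features, 17.7% fell in IVF and 21% in IVD, and these small parts were not compared by a test.

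NDUFB9, a subunit of the proton-pumping membrane arm, lay between 0.40 and 1.27 in AI (median 1.00), between 0.30 and 1.16 in IVD (median 0.77) and between -1.51 and 0.48 in IVF (median -0.13). Of 15 IVF embryos, 14 were below every AI embryo, while IVD and AI overlapped almost fully. The difference from AI was -1.10 ± 0.14 in IVF (adjusted p = 5.69e-08, 2.14-fold) and -0.13 ± 0.14 in IVD (adjusted p = 0.475).

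NDUFA2, of the NADH-oxidising module, stepped down over both groups. It lay between -0.50 and 0.41 in AI (median -0.03), -1.48 and -0.16 in IVD (median -0.65) and -1.64 and -0.64 in IVF (median -1.06), so that no IVF embryo reached the lowest AI embryo. The differences from AI were -1.04 ± 0.12 in IVF (adjusted p = 2.61e-08) and -0.65 ± 0.13 in IVD (adjusted p = 5.33e-05), and IVF was lower than IVD (-0.39 ± 0.12, adjusted p = 0.00931).

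NDUFV1 showed the opposite order of the groups. It is the core subunit that binds NADH and carries the flavin. Its ratio lay between 0.31 and 1.80 in AI (median 1.22), -0.15 and 1.42 in IVF (median 0.54) and -0.69 and -0.07 in IVD (median -0.26). No IVD embryo overlapped with AI, and 14 of 15 IVF embryos were above the highest IVD embryo. The fall from AI was -1.54 ± 0.14 in IVD (adjusted p = 3.47e-12, 2.9-fold) and -0.66 ± 0.13 in IVF (adjusted p = 0.00016), with IVF over IVD by 0.88 ± 0.13 (adjusted p = 5.91e-07). Only 18 of the 6278 features had a smaller p in the comparison of IVD with AI, which ranks NDUFV1 at 19.

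NDUFS8, a core subunit with iron-sulfur clusters on the path to ubiquinone, went against its complex in IVF. It lay between -0.38 and 0.20 in AI (median -0.15), -0.18 and 0.66 in IVF (median -0.01) and -0.75 and -0.15 in IVD (median -0.53). AI and IVF overlapped widely, with 4 of 15 IVF embryos above the highest AI embryo. It rose by 0.22 ± 0.09 in IVF (adjusted p = 0.0396), a call that 7 of 13 alternatives did not keep (adjusted p up to 0.266), and fell in IVD (-0.36 ± 0.09, adjusted p = 0.000818). NDUFA9, an accessory neighbour of the ubiquinone site, had a like profile: it differed by 0.16 ± 0.09 in IVF (adjusted p = 0.176) and fell in IVD (-0.37 ± 0.09). NDUFS3, the remaining measured core subunit, passed the test in neither group against AI (-0.31 ± 0.16 in IVF and 0.34 ± 0.15 in IVD), but was lower in IVF than in IVD (-0.66 ± 0.15, adjusted p = 0.000503). That last difference was -0.01 on the arrays with the embryo in Cy5 only.

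Among the other complex I genes, NDUFA12 (-0.97 ± 0.15), NDUFB5 (-0.93 ± 0.19), NDUFA1 (-0.83 ± 0.18), NDUFC2 (-0.62 ± 0.14), NDUFS4 (-0.43 ± 0.14), NDUFAB1 (-0.38 ± 0.15) and NDUFA8 (-0.34 ± 0.11) fell in IVF and passed no test in IVD, where they differed from AI by -0.28, 0.10, 0.04, -0.29, -0.12, -0.02 and -0.24. NDUFAB1 is also the acyl carrier protein of mitochondrial fatty acid synthesis, and NDUFS4 helps to attach the NADH-oxidising module. NDUFA7 (-0.94 ± 0.12 in IVF and -0.94 ± 0.12 in IVD), NDUFB8 (-0.70 ± 0.14 and -0.61 ± 0.14) and NDUFV3 (-0.40 ± 0.11 and -0.49 ± 0.12) fell alike in both groups, with intervals of the IVF to IVD difference of -0.24 to 0.24, -0.37 to 0.18 and -0.14 to 0.32. NDUFA10 (-0.76 ± 0.17 in IVF and -1.16 ± 0.18 in IVD) and NDUFS5 (-0.39 ± 0.13 and -0.89 ± 0.14) fell further in IVD by value, and for NDUFS5 the difference between IVF and IVD passed the test (0.51 ± 0.14, adjusted p = 0.00201). No IVD embryo overlapped with AI for NDUFA7. The calls of NDUFAB1, NDUFA8, NDUFS4, NDUFS5 and NDUFV3 in IVF were lost in 4 to 7 of the 12 or 13 alternatives.

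**Figure D2:**
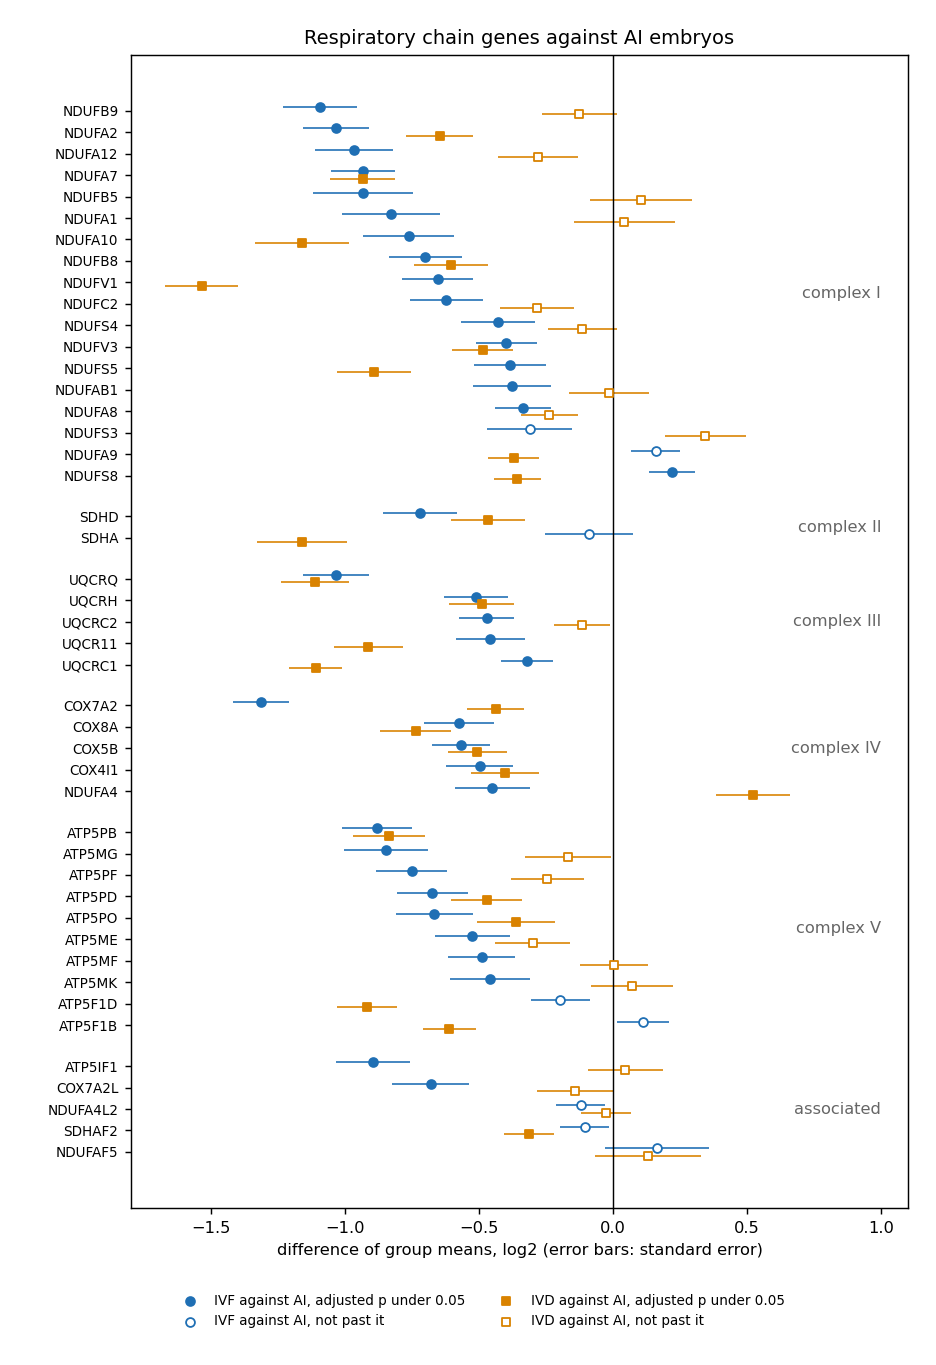
Difference of group means from AI on the log2 scale (x axis) with its standard error, for IVF (circles) and IVD (squares), by gene and complex; filled symbols passed limma's adjusted p of 0.05. Circles lie further left for most small subunits of complexes I and V, squares for NDUFV1, SDHA, UQCRC1, ATP5F1D and ATP5F1B, and NDUFA4 is the filled square to the right of 0.

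Complex II, which is also an enzyme of the citrate cycle, was measured through its catalytic subunit and a membrane anchor. SDHA, which carries the flavin and oxidises succinate, fell in IVD: it lay between -0.55 and 0.75 in AI (median 0.27), -0.98 and 1.47 in IVF (median 0.00) and -1.77 and -0.54 in IVD (median -0.94). Of 14 IVD embryos 13 were below every AI embryo, and 13 of 15 IVF embryos were above every IVD embryo. The difference from AI was -1.16 ± 0.17 in IVD (adjusted p = 2.86e-07, 2.24-fold) and -0.09 ± 0.16 in IVF (adjusted p = 0.696, 95% interval -0.42 to 0.24), and IVF was above IVD by 1.07 ± 0.16 (adjusted p = 7e-07). Among IVF embryos IVF 1 was the highest (1.47), and IVF 7 (-0.98) and IVF 11 (-0.85) were the lowest.

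SDHD, the membrane anchor that helps to form the ubiquinone site, fell in both groups. It lay between 1.48 and 2.40 in AI (median 2.05), 1.05 and 2.14 in IVD (median 1.58) and 0.13 and 1.81 in IVF (median 1.37). The differences from AI were -0.72 ± 0.14 in IVF (adjusted p = 7.15e-05) and -0.47 ± 0.14 in IVD (adjusted p = 0.00523), and IVF and IVD differed by -0.25 ± 0.14 (adjusted p = 0.126). Both ranges overlapped with AI, with 10 of 14 measured IVF and 5 of 14 IVD embryos under the AI range.

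Complex III, the cytochrome bc1 complex that hands electrons from ubiquinol to cytochrome c, fell throughout in IVF (5 of 5, median -0.47), and 4 of 5 fell in IVD (median -0.91). The shares of all features that fell were 17.7% in IVF and 21% in IVD. UQCRQ, a small subunit beside cytochrome b, separated AI from both other groups in every embryo: it lay between 0.01 and 0.82 in AI (median 0.41), -1.34 and -0.38 in IVD (median -0.81) and -1.61 and -0.08 in IVF (median -0.64). The differences were -1.03 ± 0.12 in IVF (adjusted p = 2.48e-08) and -1.11 ± 0.13 in IVD (adjusted p = 1.56e-09), and IVF against IVD gave 0.08 ± 0.12 (95% interval -0.17 to 0.33). In all, every IVF embryo lay below every AI embryo for 4 of the 45 genes (UQCRQ, NDUFA2, COX7A2 and ATP5PB), where 0.382% of all features did. The same held in IVD for 6 of 45 (UQCRQ, NDUFA7, NDUFV1, UQCR11, UQCRC1 and ATP5F1D), where 1.74% of all features did.

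UQCRC1 and UQCRC2, the paired core proteins of complex III on its matrix side, parted in IVD. UQCRC2 lay between 0.91 and 1.70 in AI (median 1.36), 0.88 and 1.65 in IVD (median 1.19) and 0.33 and 1.18 in IVF (median 0.97), so IVD and AI overlapped almost fully. It fell in IVF (-0.47 ± 0.10, adjusted p = 0.000375) and differed by -0.12 ± 0.11 in IVD (adjusted p = 0.37). UQCRC1 fell by 1.11 ± 0.10 in IVD (adjusted p = 3.64e-12) and by 0.32 ± 0.10 in IVF (adjusted p = 0.00815), and the IVF call was lost in 6 of 13 alternatives. The size for UQCRC1 depends on the clone and the row: its 2 clones gave IVD differences from -1.58 to -0.61 and IVF against IVD from 0.04 to 1.34 over 4 rows. For IVF against AI, the rows of 1 clone gave -0.21 and -0.63, and those of the other -0.25 and -0.24. With limma on single rows, only the row at -0.63 passed the test (adjusted p = 4.02e-07).

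UQCRH, the hinge protein next to cytochrome c1, lay between -1.34 and -0.12 in AI (median -0.67), -1.82 and -0.66 in IVD (median -1.01) and -1.88 and -0.86 in IVF (median -0.99). The groups overlapped, and the means fell by a like amount, -0.51 ± 0.12 in IVF (adjusted p = 0.00089) and -0.49 ± 0.12 in IVD (adjusted p = 0.00107). UQCR11, a small membrane subunit, fell by 0.46 ± 0.13 in IVF (adjusted p = 0.0046) and by 0.91 ± 0.13 in IVD (adjusted p = 2.32e-07), with IVF above IVD (0.46 ± 0.12, adjusted p = 0.00229). That last call was lost for UQCR11 with the values as given (0.15, adjusted p = 0.44) and in Cy3 alone (0.20, adjusted p = 0.303).

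Complex IV, cytochrome c oxidase, held the gene with the largest IVF change among the 45. COX7A2, a small membrane subunit in its widely expressed isoform, lay between 0.81 and 1.46 in AI (median 1.25), 0.21 and 1.01 in IVD (median 0.82) and -0.72 and 0.29 in IVF (median 0.01). No IVF embryo overlapped with AI, and 14 of 15 were below every IVD embryo. It fell by 1.32 ± 0.10 in IVF (adjusted p = 4.24e-13, 2.49-fold) and by 0.44 ± 0.11 in IVD (adjusted p = 0.000782), and 3 of all 6278 features had a smaller p in IVF against AI, which puts it at rank 4. Over the alternatives the IVF difference stayed between -1.36 and -1.22.

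COX8A, the widely expressed form of another small subunit, lay between -0.27 and 0.88 in AI (median 0.44), -0.72 and 0.14 in IVD (median -0.33) and -1.22 and 0.52 in IVF (median -0.15). It fell by 0.58 ± 0.13 in IVF (adjusted p = 0.00056) and by 0.74 ± 0.13 in IVD (adjusted p = 1.4e-05), with overlapping ranges. COX5B, the zinc-binding subunit on the matrix side, fell by 0.57 ± 0.11 in IVF and 0.51 ± 0.11 in IVD. COX4I1, a regulatory subunit, fell by 0.50 ± 0.12 and 0.40 ± 0.13. For these 3 genes IVF and IVD did not differ past the test (0.16 ± 0.13, -0.06 ± 0.11 and -0.10 ± 0.12).

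NDUFA4 is named for complex I but is a subunit of complex IV, and it was the member that rose in IVD. It lay between -1.40 and -0.15 in AI (median -0.62), -0.78 and 0.37 in IVD (median -0.06) and -1.73 and -0.37 in IVF (median -1.06). Of 14 IVD embryos 8 were above every AI embryo, and 12 of 14 measured IVF embryos were below every IVD embryo. It rose by 0.52 ± 0.14 in IVD (adjusted p = 0.00207), fell by 0.45 ± 0.14 in IVF (adjusted p = 0.00943) and was lower in IVF than in IVD (-0.97 ± 0.14, adjusted p = 1.96e-07). On arrays with the embryo in Cy5 only, the IVD call was lost (adjusted p = 0.0544), and the IVF call was lost in 4 of 12 alternatives. Its paralogue NDUFA4L2, which the same cDNA could also bind, differed by -0.12 ± 0.09 in IVF and -0.03 ± 0.09 in IVD and passed no test.

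**Figure D3:**
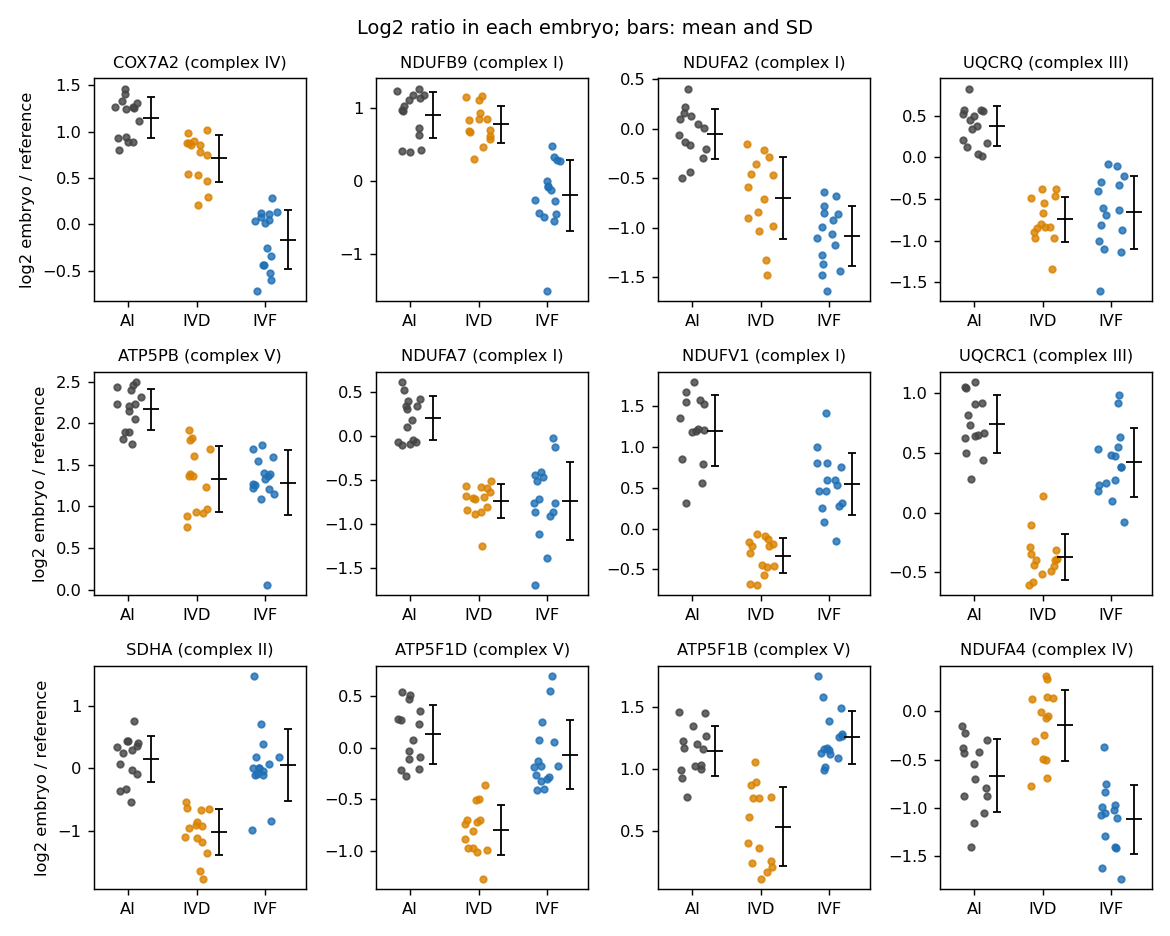
Log2 ratio of embryo over reference (y axis, a separate scale for each gene) in every AI, IVD and IVF embryo for 12 genes, with mean and SD at the right of each group. IVF embryos are the lowest for COX7A2, NDUFB9 and NDUFA2, IVD embryos for NDUFV1, UQCRC1, SDHA, ATP5F1D and ATP5F1B, and both lie below AI for UQCRQ, ATP5PB and NDUFA7.

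In complex V, 8 of 10 genes fell in IVF and 0 rose (median -0.60), and 5 fell in IVD and 0 rose (median -0.33). Over all features, 17.7% fell in IVF and 21% in IVD. The counts by part of the enzyme rest on few genes and were not tested against each other. All 4 genes of the peripheral stalk, which holds the catalytic head still, fell in IVF (-0.88 to -0.67), as did all 4 of the membrane part (-0.85 to -0.46). In IVD, 3 of 4 and 0 of 4 fell. Of the head and the central stalk 2 genes were tested, and 0 of 2 fell in IVF and 2 of 2 in IVD.

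ATP5PB, subunit b of the peripheral stalk, lay between 1.75 and 2.49 in AI (median 2.22), 0.75 and 1.92 in IVD (median 1.36) and 0.06 and 1.74 in IVF (median 1.33). Every IVF embryo and 11 of 14 IVD embryos lay below every AI embryo. The differences were -0.88 ± 0.13 in IVF (adjusted p = 1.49e-06) and -0.84 ± 0.13 in IVD (adjusted p = 2.17e-06), and between IVF and IVD -0.05 ± 0.13 (95% interval -0.31 to 0.22). Of the other stalk genes, ATP5PD (-0.68 ± 0.13 in IVF and -0.47 ± 0.13 in IVD) and ATP5PO, the oligomycin sensitivity protein at the top of the stalk (-0.67 ± 0.14 and -0.36 ± 0.15), fell in both. ATP5PF, known as coupling factor, fell in IVF (-0.75 ± 0.13, adjusted p = 2.16e-05) and differed by -0.25 ± 0.14 in IVD (adjusted p = 0.133). The IVD call of ATP5PO was lost in 6 of 11 alternatives.

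ATP5MG, subunit g of the membrane part where ATP synthase dimers form, lay between -0.44 and 1.42 in AI (median 0.72), -0.35 and 0.76 in IVD (median 0.61) and -1.64 and 0.50 in IVF (median -0.10). The ranges overlapped, and 2 of 15 IVF embryos were below every AI embryo. It fell by 0.85 ± 0.16 in IVF (adjusted p = 4.61e-05) and differed by -0.17 ± 0.16 in IVD (adjusted p = 0.403). ATP5ME (-0.53 ± 0.14), ATP5MF (-0.49 ± 0.13) and ATP5MK (-0.46 ± 0.15) also fell in IVF, with IVD differences of -0.30, 0.00 and 0.07 that passed no test. Of 13 alternatives, 12 kept the IVF call of ATP5ME, 10 that of ATP5MF and 11 that of ATP5MK. Their weakest IVF differences were -0.48, -0.15 and -0.18. ATP5ME and ATP5MF are subunits e and f, and ATP5MK is a small protein of the same membrane region.

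ATP5F1B, the catalytic beta subunit that makes ATP, lay between 0.77 and 1.46 in AI (median 1.17), 0.99 and 1.75 in IVF (median 1.17) and 0.11 and 1.06 in IVD (median 0.50). IVF overlapped with AI, with 3 of 15 IVF embryos above every AI embryo, and 10 of 14 IVD embryos were below the range of AI. The difference from AI was -0.61 ± 0.10 in IVD (adjusted p = 2.96e-06) and 0.11 ± 0.10 in IVF (adjusted p = 0.379, 95% interval -0.09 to 0.31). Without centring of the arrays, the IVD call was lost (adjusted p = 0.0714).

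ATP5F1D, the delta subunit of the turning central stalk, lay between -0.27 and 0.54 in AI (median 0.15), -0.41 and 0.69 in IVF (median -0.18) and -1.26 and -0.36 in IVD (median -0.77), with no overlap between IVD and AI. It fell by 0.92 ± 0.11 in IVD (adjusted p = 1.18e-08) and differed by -0.20 ± 0.11 in IVF (adjusted p = 0.158). IVF was above IVD by 0.72 for both ATP5F1B (± 0.10, adjusted p = 6.39e-08) and ATP5F1D (± 0.11, adjusted p = 7.61e-07).

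Of the 5 associated proteins, 2 fell in IVF and 1 fell in IVD, where 17.7% and 21% of all features fell. ATP5IF1, the inhibitor that stops complex V from running backwards, lay between -1.15 and 0.50 in AI (median -0.07), -0.52 and 0.44 in IVD (median 0.02) and -1.76 and -0.32 in IVF (median -0.99). A single AI embryo, H3, was far below the other AI embryos. It fell in IVF (-0.90 ± 0.14, adjusted p = 2.32e-06) and differed by 0.05 ± 0.14 in IVD (adjusted p = 0.818).

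COX7A2L, which joins complexes III and IV into supercomplexes, lay between -0.51 and 0.88 in AI (median 0.10), -0.31 and 0.28 in IVD (median 0.03) and -1.89 and 0.00 in IVF (median -0.43). It fell in IVF (-0.68 ± 0.14, adjusted p = 0.00024) and differed by -0.14 ± 0.15 in IVD (adjusted p = 0.443). SDHAF2, the factor that helps to place the flavin on SDHA, lay between -0.53 and 0.27 in AI (median 0.10), -0.65 and 0.21 in IVD (median -0.26) and -0.64 and 0.17 in IVF (median -0.01). Like SDHA it fell in IVD (-0.32 ± 0.09, adjusted p = 0.00568) and not in IVF by the test (-0.11 ± 0.09, adjusted p = 0.372), though its ranges overlapped. NDUFAF5, an assembly factor of complex I, differed by 0.16 ± 0.19 in IVF and 0.13 ± 0.20 in IVD. It and NDUFA4L2 were the genes that the test over all 3 groups did not call, which called 43 of 45 members and 67.1% of all features.

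IVF and IVD embryos were compared directly to see which genes separate them. Of the 45 genes, 17 were lower in IVF, where 25.2% of all features were, and 9 were higher, where 22.3% were. The median difference was -0.10, against -0.01 over all features. Both directions occurred within complexes I, III and V. The 9 genes higher in IVF make up 20% of the 45, near the 22.3% of all features, so their count is not read as particular to them. They were NDUFV1, NDUFS8, NDUFA9 and NDUFS5 of complex I, SDHA, UQCRC1, UQCR11, ATP5F1B and ATP5F1D. The largest was SDHA (1.07), then NDUFV1 (0.88) and UQCRC1 (0.79).

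Among the 17 lower genes NDUFS3 and UQCRC2 are core subunits. The other 15 are accessory subunits, parts of the stalk and membrane region of complex V, or associated proteins. This grouping was made after the values were seen and carries no test. Such genes also make up most of the 45, so the grouping is not read as particular to the 17 lower genes. The furthest were NDUFB5 (-1.04 ± 0.19), NDUFA4 (-0.97), NDUFB9 (-0.97 ± 0.14), ATP5IF1 (-0.94 ± 0.14), COX7A2 (-0.88 ± 0.10) and NDUFA1 (-0.87 ± 0.18). The rest were NDUFA12 (-0.69), ATP5MG (-0.68), NDUFS3 (-0.66), COX7A2L (-0.54), ATP5MK (-0.53), ATP5PF (-0.51), ATP5MF (-0.50), NDUFA2 (-0.39), NDUFAB1 (-0.36), UQCRC2 (-0.36) and NDUFC2 (-0.34). By group, 16 of 45 genes were called lower in IVF than in both AI and IVD, where 9.68% of all features were. The reverse, lower in IVD than in both AI and IVF, held for 9 of 45, where 12.7% of all features were. Those 9 are the genes listed above as higher in IVF than in IVD.

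**Figure D4:**
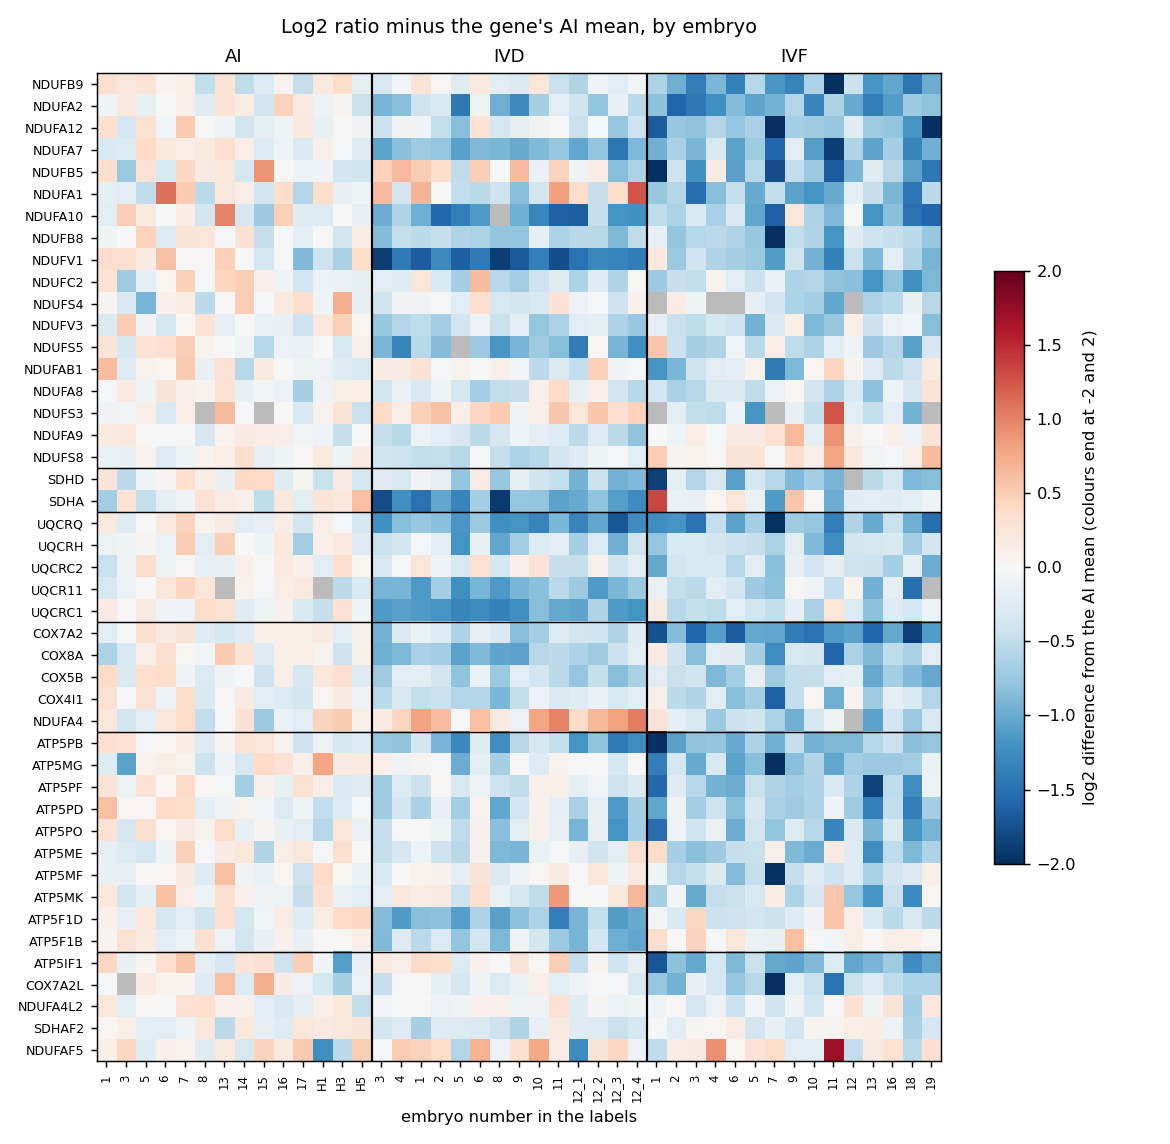
Log2 ratio minus the gene's AI mean (colour, blue lower and red higher, ending at -2 and 2; grey without a value) for the 45 genes (rows, by complex) in the 43 embryos (columns, by group). NDUFV1, SDHA and UQCRC1 are blue across the IVD embryos, COX7A2 and NDUFB9 across the IVF embryos, and IVF 7 has the most genes lying more than 1 below the AI mean (17).

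Within each group the spread between embryos was smaller at the median of these genes than at that of all features. The median SD between embryos was 0.288 for the 45 genes and 0.399 for all features in AI, 0.277 and 0.326 in IVD, and 0.4 and 0.423 in IVF. The 45 genes are means of 2 or more rows each, whereas 2845 of the 6278 features are single rows. Averaging rows can lower an SD, so these are unlike measures and the smaller spread is not read as a trait of these genes. The least variable gene was NDUFS8 in AI (SD 0.165), NDUFA4L2 in IVD (0.127) and ATP5F1B in IVF (0.214). The most variable were NDUFAF5 in AI (0.481), NDUFA1 in IVD (0.637) and NDUFB5 in IVF (0.607). Without IVF 7, which lay alone in a cluster of dye bias, 35 genes fell in IVF, where 17.3% of all features did.

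Of the 45 genes, 41 rest on 1 clone spotted on 2 rows, whose IVF against AI differences lay a median of 0.05 apart. NDUFV3, UQCRC1 and UQCRC2 have 2 clones each and UQCRH has 3. The 7 genes without a row measured often enough to be tested were filled mainly in IVD. NDUFAF3 was measured in 0 AI, 14 IVD and 0 IVF embryos, COX6A2 in 0, 10 and 0, and NDUFS6 in 1, 14 and 2. ATP5F1A, the partner of ATP5F1B in the head of complex V, was measured in 10 AI embryos (0.18 to 1.37, median 0.70), 14 IVD embryos (-0.15 to 0.94, median 0.45) and 0 IVF embryos. COX5A (8, 14 and 8 embryos), NDUFB10 (8, 14 and 4) and NDUFB7 (7, 13 and 7) complete the 7. No single row of COX5A or NDUFB7 reached the minimum of 7 embryos in every group. The median of COX5A was 0.69 in AI, 0.39 in IVD and 0.88 in IVF, so it stood higher in IVF than in AI. In the same order, the medians were -0.29, -0.65 and -0.34 for NDUFB10 and 0.38, -0.30 and 0.13 for NDUFB7. These differences were not tested. The sources used here do not say what left a spot without a value.

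Genes that serve the chain were followed through lists, of which only part was measured, and their counts stand beside 17.7% of all features lower and 19.9% higher in IVF, and 21% lower and 25.5% higher in IVD. With so few genes a list, none of these counts is read as particular to its list. Of 37 assembly factors listed 6 were measured, and 2 fell in IVF and 2 in IVD, and 0 rose in either. COX17, the copper chaperone of complex IV, fell in IVF (-1.15 ± 0.18, adjusted p = 3.05e-06), and so did HIGD1A, a small hypoxia-induced protein of the inner membrane (-0.90 ± 0.12), which also fell in IVD (-0.43 ± 0.12). OXA1L, which inserts proteins into the inner membrane, fell in IVD (-1.14 ± 0.13, adjusted p = 8.23e-10) and was higher in IVF than in IVD (0.85 ± 0.12).

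Some of the electrons that enter outside complexes I and II pass through the electron transfer flavoprotein. Both its subunits fell in both groups: ETFB by 1.03 ± 0.14 in IVF and 1.02 ± 0.15 in IVD, and ETFA by 0.67 ± 0.14 and 0.48 ± 0.14. ETFDH, which passes these electrons to ubiquinone, fell in IVD (-0.91 ± 0.22, adjusted p = 0.000696) and differed by -0.43 ± 0.21 in IVF (adjusted p = 0.101). Of the 5 genes measured out of 17 on this list, 2 fell in IVF and 3 in IVD, and 0 rose.

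Of 12 measured genes out of 22 for the citrate cycle and pyruvate dehydrogenase, 3 fell and 1 rose in IVF, and 4 fell and 1 rose in IVD. MDH2, mitochondrial malate dehydrogenase, fell in IVD (-0.98 ± 0.13, adjusted p = 6.85e-08) and was higher in IVF than in IVD by 1.01 ± 0.13. FH, fumarase, fell in IVF (-0.54 ± 0.17, adjusted p = 0.0103), as did SUCLG2, a subunit of succinyl-CoA ligase (-0.54 ± 0.15). SUCLA2, its ATP-forming counterpart, rose in IVD (0.71 ± 0.22, adjusted p = 0.00697).

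Of 7 measured genes out of 11 for ATP export and the outer membrane channels, 2 fell and 1 rose in IVF, and 1 fell and 1 rose in IVD. The phosphate carrier SLC25A3 (-0.55 ± 0.17) and the ADP/ATP carrier SLC25A6 (-0.69 ± 0.21) fell in IVF, the channel VDAC1 rose in IVF (0.55 ± 0.17), and its paralogue VDAC3 rose in IVD (0.88 ± 0.18). Of 6 measured genes out of 17 for mitochondrial DNA and biogenesis, 1 fell in IVF (SSBP1, which coats single-stranded mitochondrial DNA, -0.83 ± 0.17, adjusted p = 0.000163) and 1 rose in IVD (the nuclear receptor ESRRA, 0.57 ± 0.11, adjusted p = 7.67e-05). Of the subunits encoded in mitochondrial DNA, 0 were measured under a single symbol.

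Cell type markers were also followed. Of 18 measured trophectoderm markers out of 25, 5 fell and 1 rose in IVF, where 17.7% and 19.9% of all features did, and 6 fell and 5 rose in IVD, where 21% and 25.5% did. The embryo medians of this list ran from 1.48 to 2.31 for AI, 0.40 to 2.06 for IVD and 1.06 to 1.95 for IVF. Of 3 cumulus and granulosa cell markers, 2 rose in IVF and 1 in IVD, with embryo medians from -0.53 to 0.12 for AI, -0.34 to 0.28 for IVD and -0.26 to 0.22 for IVF. For the inner cell mass and hypoblast 2 markers were measured (embryo medians 0.39 to 1.92, 0.85 to 2.28 and 0.14 to 1.80), for blood and immune cells 3 (-2.10 to -0.36, -1.36 to -0.52 and -1.85 to -0.07) and for oviduct and endometrium 0. The part of cell make-up in the respiratory chain results was not tested.

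Scaling bears on IVD most. Of the features called between IVD and AI, 54.9% were higher with the arrays centred, against 85.3% with the values as given, 65.1% with only the arrays that hold the embryo in Cy3 and 45.5% with those in Cy5. Without centring, the median of all features moved to 0.32 in IVD, and that of the 45 genes lay -0.43 from it. By complex, 5 of 18 genes then fell in complex I, 1 of 2 in complex II and 3 of 5 in complex III. In complex IV 1 of 5 fell and in complex V 2 of 10, where 6.59% of all features fell. The medians of complexes I to V were -0.07, -0.56, -0.66, -0.185 and -0.08, so those of complexes I and V came close to 0. With centring, complexes I and V stood at -0.32 and -0.33. Between IVF and IVD the share of higher calls was 47% with centring, 17.5% as given, 33.6% in Cy3 and 61.3% in Cy5. Of the calls between IVF and AI, 10 of 37 stood in every alternative in which the gene was measured: NDUFA2, NDUFA7, NDUFA12, NDUFB8, NDUFB9, UQCRC2, UQCRQ, COX7A2, ATP5PB and ATP5IF1. Between IVD and AI 12 of 26 did: NDUFA2, NDUFA7, NDUFA10, NDUFS5, NDUFV1, SDHA, UQCR11, UQCRC1, UQCRQ, COX8A, ATP5F1D and ATP5PB. Between IVF and IVD 16 of 26 did: NDUFA1, NDUFA12, NDUFB5, NDUFB9, NDUFV1, SDHA, UQCRC1, COX7A2, NDUFA4, ATP5F1B, ATP5F1D, ATP5MG, ATP5MK, ATP5PF, ATP5IF1 and COX7A2L. In the 3 comparisons 0 calls turned their direction in any alternative.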

How the data were processed

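The values are log2 ratios deposited by the authors in 1 table of 16416 rows and 86 arrays; the sources used here do not state how images were read or signals corrected and normalized, and no intensities were used. Of its cells 20.1% hold no value (280751 empty, 3308 null and 16 at a ceiling). Array medians ran from -2.22 to 1.06, so the median of the 5558 rows with a value on all arrays was subtracted from each. Where the embryo was in Cy3 the sign was turned, the 2 arrays of an embryo averaged, rows kept with both arrays in at least 7 embryos of every group (10757 rows), and rows of the same single symbol averaged. The number of arrays limits the precision.

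Group means over 43 embryos were fitted with limma 3.58.1 in R 4.3.3 (two-sided, Benjamini-Hochberg over 6278 features, threshold 0.05), after tests on simulated data. The p-values measure the spread between embryos, whose independence the labels do not state. Figures used matplotlib 3.10.9. All 52 genes matched the RefSeq gene table of ARS-UCD2.0 by gene identifier; clones were not mapped, so no coordinates are given, and no sequence was used here. A clone can also bind paralogues such as NDUFA4 and NDUFA4L2.

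The members and lists were chosen with earlier results of these data known. Every tested member is named; embryo ranges are given, per complex, for the 2 genes with the largest IVF and the 1 with the largest IVD difference from AI, the 1 farthest from the median of its complex, and those against their complex. Genes outside the set come from lists, up to 4 of each by size. Alternatives were other centrings, quantile normalization, each dye alone, other filters, 1 row per gene, embryo number as a block, clusters of dye bias, and left-out embryos. The clusters by correlation, the fits within a cluster and the fit without IVF 7 were added after the data were seen. Same-numbered embryos of different groups did not deviate together (21 pairs, r from -0.174 to 0.163, median -0.013), so the numbers were not taken as pairs.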

Additional observations from a re-analysis of the deposited data

How the results depend on the processing

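Values as given gave 0 members higher in IVF than AI and 1325 features called (against 1 and 2365), 12 lower and 2 higher in IVD than AI at a median of -0.11 (against 25, 1 and -0.36), and 5 higher in IVF than IVD at a median of -0.34 (against 9 and -0.10). Of all 6278 features, 644 were then higher in IVF than AI and 465 in IVF than IVD. The 1 member higher in IVF than AI became 2 in Cy3 alone and 0 in Cy5 alone, with 1 row per gene, with dye-bias clusters of either kind as a block, and within 9 AI and 12 IVF embryos, where 1285 features were called. The correlation clusters as a block left 11 members lower and 504 features called. The 1 member higher in IVD than AI became 2 when centred on all rows, in Cy3 alone, with 1 row per gene and within 5 AI and 14 IVD embryos, and 0 in Cy5 alone and on rows measured in every embryo. Those rows, fewer to test, left 1571, 1770 and 1880 features called (IVF against AI, IVD against AI, IVF against IVD). With embryo number as a replicate block, 33 members were lower and 0 higher in IVF than AI, where 760 and 846 of all 6278 features were. Between IVD and AI, 22 were lower and 1 higher, where 912 and 1141 of all features were. Between IVF and IVD, 15 were lower and 10 higher, where 1310 and 1204 of all features were, at a median of -0.18 (against -0.10). The 10 are not read as particular to the members. Other counts over the members or all features, and other medians over all members, lay within 1.5 times the reported value. The medians over all members kept their direction. Medians by complex are not part of this statement. Sign changes of differences that passed the test in neither setting were not counted. The cause of these shifts was not tested. Low signal could not be weighed, as no intensities were used.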
